A study of Mus musculus with 9 samples.

Results

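Uptake of apoptotic cells, or efferocytosis, was examined through 9 genes taken by symbol: the TAM receptors Tyro3, Axl and Mertk (named for their initials), their ligands Gas6 and Pros1, the phosphatidylserine receptor Timd4, the bridging proteins Mfge8 and Tgm2, and the engulfment adaptor Elmo1. These were 9 of 24346 genes listed in the expression files. RNA was sequenced from 3 populations of lung cells of C57BL/6 mice at postnatal week 10, with 3 samples each and no gene deletion or drug in any group. Ctrl-AM were alveolar macrophages of vehicle-injected lungs, Tumor-AM were alveolar macrophages of lungs carrying orthotopic Lewis lung carcinoma (LLC, a mouse lung cancer line of the same strain, here labelled with tdTomato), and Tumor-macrophage were the Siglec-F-negative, F4/80-positive, CD11b-positive macrophages of tumor-bearing lungs. All were sorted as CD45-positive autofluorescent cells from enzyme-digested, unperfused lungs, so that alveolar macrophages were gated on Siglec-F and Tumor-macrophage by its absence. The model is a single cell line in a single strain, and the sources used here do not say whether same-numbered samples of the tumor-bearing groups came from the same animal.

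A dying cell exposes phosphatidylserine on its surface. Phagocytes bind it directly, through receptors such as Timd4, or through soluble bridges: Gas6 and Pros1 link phosphatidylserine to the TAM receptor tyrosine kinases, whereas Mfge8 links it to alpha-v integrins, with Tgm2 as a co-factor on the phagocyte surface. Elmo1 then works with Dock proteins to activate Rac1 and move actin around the corpse. Gas6 binds Tyro3, Axl and Mertk, whereas Pros1 binds Tyro3 and Mertk but not Axl, and both ligands need vitamin K-dependent carboxylation to bind phosphatidylserine. Alveolar macrophages are known for high Axl, and Mertk is widely used as a marker of mature macrophages.

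The values are FPKM, fragment numbers divided by transcript length and by sequencing depth, so levels of different genes can be set side by side. A change below is the difference of mean log2(FPKM + 1), which understates the change of low genes. It is given with its standard error (SE) from limma, a linear model fitted to all 9 samples and 10686 genes with at least 1 FPKM in at least 3 samples, and a change was called at an adjusted p (Benjamini-Hochberg) under 0.05. Of the 9 genes, 8 passed this filter. Tyro3 did not, and Gas6 and Timd4 passed it only through Tumor-macrophage, where they are high, so a difference was needed for them to be tested at all. In sorted bulk samples, fewer cells with a transcript and less transcript per cell cannot be told apart.

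The sorted populations carried the markers of their labels. Siglecf was at 164 to 209 FPKM in the 6 alveolar macrophage samples and at 0.456 to 0.835 FPKM in Tumor-macrophage, and each of 9 alveolar macrophage markers was called lower there against either alveolar group (limma). Siglec-F was a sorting antigen, so the Siglecf difference was set by the sort. Of 5 general macrophage markers, 3 were called higher in Tumor-macrophage against Tumor-AM and the other 2 were not called. The 4 tumor macrophage markers Ccr2, Cx3cr1, Tgfb3 and Ly6c2 summed to 149 to 193 FPKM in Tumor-macrophage against 6.58 to 14.3 FPKM in alveolar macrophages. The paper already reported these 4 genes as high in this population, and Pparg, Marco and Siglecf as high in alveolar macrophages. For these genes the levels are therefore no independent check of identity. The size of the smallest FPKM steps put the libraries at roughly 10300000 to 13000000 counted reads. Markers of other cells were present at low levels and differed between groups: T-cell markers summed to 6.09 to 14.0 FPKM in Tumor-macrophage and 2.15 to 6.67 FPKM in alveolar macrophages, B-cell markers to 16.9 to 35.3 against 2.59 to 12.6 FPKM, and dendritic cell markers to 3.13 to 4.12 against 0.49 to 2.08 FPKM. Of 2 eosinophil genes, Epx was listed at 0 in all 9 samples. Prg2 was at 0.143 FPKM in Tumor-macrophage 1, 1.14 FPKM in Tumor-macrophage 3 and 0 in the others. Neutrophil markers (88.4 to 135 FPKM in Tumor-macrophage, 104 to 159 FPKM in alveolar macrophages, with Ly6g not listed), NK cell markers (0.626 to 1.94 and 0.034 to 0.934 FPKM), endothelial markers (0.526 to 2.83 and 0.719 to 4.39 FPKM) and epithelial markers (19.2 to 69.7 and 52.9 to 217 FPKM) had overlapping sums. Single genes within them could still differ. In the neutrophil list, Csf3r was at 29.8 to 42.1 against 7.39 to 16.1 FPKM. S100a8 (50.9 to 71.8 against 71.7 to 144 FPKM) and S100a9 overlapped. In the epithelial list, Cdh1 was at 0.876 to 1.58 against 11.5 to 26.1 FPKM. Sftpb was at 0.0699 to 0.374 against 0.376 to 0.736 FPKM. Sftpc (6.19 to 64.1 against 22.2 to 70.1 FPKM), Scgb1a1 and Cldn18 overlapped. The alveolar macrophage groups also separated for some sums. B-cell markers were at 10.2 to 12.6 FPKM in Ctrl-AM and 2.59 to 5.86 FPKM in Tumor-AM, and endothelial markers at 3.71 to 4.39 and 0.719 to 3.47 FPKM. Fibroblast markers, given below, went the other way. The part of these cells in the differences between the populations was not tested.

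The 9 genes lie on 6 autosomes. In GENCODE annotation of GRCm38, the same assembly as the mm10 build of the files, Mertk spans chr2:128698956-128802894 with 19 exons in its main transcript, Axl chr7:25757273-25788705 with 20, Tyro3 chr2:119797733-119818104 with 19, Gas6 chr8:13465374-13494490 with 15, and Pros1 chr16:62854307-62929346 with 15. Timd4 spans chr11:46810800-46844332 with 9 exons, Mfge8 chr7:79133768-79149060 with 10, Tgm2 chr2:158116402-158146436 with 13, and Elmo1 chr13:20090596-20608353 with 22. No 75-base window of the main transcripts of Mertk, Axl, Tyro3, Gas6, Pros1, Timd4, Mfge8 and Elmo1 occurs in a transcript of another gene, so reads of that length from these transcripts could be told apart. Over all annotated transcripts, Elmo1 shares 403 exon bases with Gm32036 and Gas6 34 with Tmem255b, both on the opposite strand. Tmem255b was listed at 0 in all 9 samples, and reads from other transcripts of these genes were not examined. In Tgm2, 16.8% of windows lie in transcripts of Rprd1b or Gm20412 on the opposite strand. The libraries do not mark the strand, so reads of these windows could not be told apart by it. Rprd1b was at 4.04 to 6.54 FPKM, against 255 to 394 FPKM for Tgm2.

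Upstream sequences are shown for the receptor pair that moved in the same direction, Mertk and Axl, and the ligand pair that moved in opposite directions, Gas6 and Pros1. Each is the 250 bases before the RefSeq transcription start in GRCm38.p6, read 5′ to 3′ on the gene's own strand, with GC boxes (GGGCGG on either strand) in capitals.
Mertk, chr2:128698665-128698914, plus strand: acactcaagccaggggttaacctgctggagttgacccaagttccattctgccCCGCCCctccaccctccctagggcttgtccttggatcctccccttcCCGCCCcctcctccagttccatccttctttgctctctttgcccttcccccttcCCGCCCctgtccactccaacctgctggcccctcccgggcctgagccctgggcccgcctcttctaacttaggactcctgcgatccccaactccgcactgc
Axl, chr7:25788734-25788983, minus strand: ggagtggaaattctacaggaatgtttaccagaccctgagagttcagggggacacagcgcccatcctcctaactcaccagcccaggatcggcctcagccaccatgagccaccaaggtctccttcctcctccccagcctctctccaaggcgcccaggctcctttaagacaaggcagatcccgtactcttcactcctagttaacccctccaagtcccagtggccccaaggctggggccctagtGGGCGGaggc
Gas6, chr8:13494536-13494785, minus strand: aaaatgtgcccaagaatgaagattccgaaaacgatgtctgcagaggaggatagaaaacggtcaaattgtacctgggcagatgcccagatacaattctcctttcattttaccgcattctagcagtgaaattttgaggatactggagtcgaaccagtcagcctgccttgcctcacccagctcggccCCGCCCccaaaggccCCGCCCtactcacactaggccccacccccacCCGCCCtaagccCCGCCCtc
Pros1, chr16:62854057-62854306, plus strand: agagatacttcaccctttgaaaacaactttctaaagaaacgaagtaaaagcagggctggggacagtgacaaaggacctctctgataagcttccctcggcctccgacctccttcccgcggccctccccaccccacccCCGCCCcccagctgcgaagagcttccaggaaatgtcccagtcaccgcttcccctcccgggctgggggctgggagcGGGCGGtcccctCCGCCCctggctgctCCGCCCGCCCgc
Mertk held 3 GC boxes, Axl 1, Gas6 4 and Pros1 5, of which the last 2 overlap in the printed run. A GC box was present in 32.7% of 32851 promoters of this length. The other motifs searched on both strands were the CCAAT box (CCAAT, in 33.8% of promoters), the TATA box (TATAAA, in 12.4%), the AP-1 site (TGANTCA, in 6.7%), a nuclear receptor motif (AGGTCA, in 14.0%) and the PU.1 site (GAGGAAGT, in 2.4%). None of them matched in these 4 windows. Sequences were found for 8 of the 9 genes, all but Tgm2. Among the others, the windows of Tyro3 (3 GC boxes), Mfge8 (4) and the first Elmo1 start (3) held GC boxes and that of Timd4 held none.

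Tumor-macrophage had lower levels of the 2 expressed TAM receptors and a different ligand from alveolar macrophages. Mertk, Axl and Pros1 were lower in Tumor-macrophage than in either alveolar macrophage group, whereas Gas6, close to the floor in alveolar macrophages, rose above Pros1 in all 3 Tumor-macrophage samples. Between the alveolar macrophage groups, the bridges Mfge8 and Tgm2 rose in tumor-bearing lungs and none of the 8 tested genes fell. Of all 10686 genes tested, 7.11% were called higher and 3.18% lower in Tumor-AM than in Ctrl-AM, beside 2 of 8 and 0 of 8 of these genes (limma, and also 0 of 8 lower at an unadjusted p under 0.05). In Tumor-macrophage against Tumor-AM, 3 genes were called higher and 4 lower, beside 24.2% and 24.4% of all genes. In Tumor-macrophage against Ctrl-AM, 4 were higher and 3 lower, beside 27.7% and 27.1%. In both of these comparisons the genes called higher include Gas6 and Timd4, which passed the filter only through Tumor-macrophage. The filter thus favoured their calls in advance. When a 2-fold change was also required, 1.95%, 17.1% and 20.1% of all genes were called in the 3 comparisons. The summed FPKM was lowest in the Ctrl-AM samples and highest in the Tumor-macrophage samples, and the split of calls over all genes moved with scaling: 760 higher and 340 lower in Tumor-AM became 607 and 446 after quantile normalization and 477 and 830 after rescaling to a common total (TPM), and 2960 higher and 2900 lower in Tumor-macrophage against Ctrl-AM became 2193 and 4529 with TPM. TPM moved the median change of the genes tested from 0.01 to -0.11 in Tumor-AM against Ctrl-AM (a shift of -0.12), from 0.00 to -0.08 in Tumor-macrophage against Tumor-AM (-0.08) and from -0.01 to -0.22 in Tumor-macrophage against Ctrl-AM (-0.21), on the log2 scale.

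**Figure D1:**
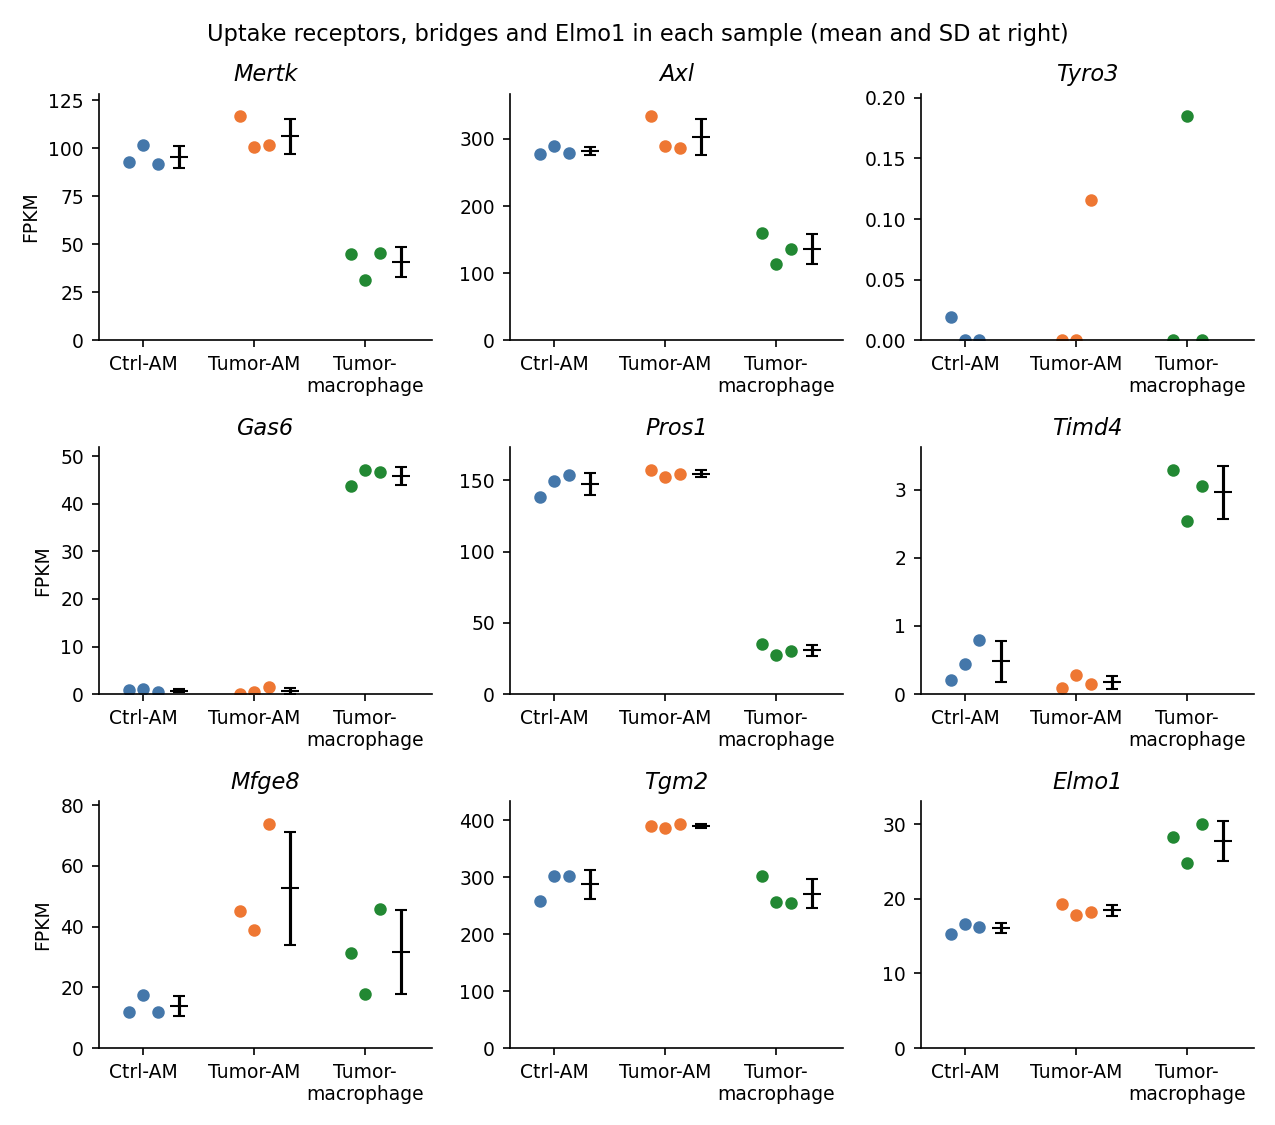
FPKM of the 9 genes in each sample (points, 3 per group, linear axes from 0) with the mean and SD at the right of each group, except for Tyro3, which was listed at 0 in 6 samples. Gas6 and Pros1 run in opposite directions, Mertk and Axl are low in the 3 Tumor-macrophage samples, and the 3 Tumor-AM samples are highest for Tgm2.

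Axl was the most abundant TAM receptor in all 3 populations. Ctrl-AM samples had 277, 289 and 279 FPKM, Tumor-AM samples 334, 289 and 286 FPKM and Tumor-macrophage samples 159, 114 and 135 FPKM. Its Ctrl-AM level exceeded that of 96.8% of the genes tested. The alveolar macrophage groups overlapped, and every Tumor-macrophage sample was below them. Axl fell by 1.16 ± 0.11 (SE) in Tumor-macrophage against Tumor-AM (limma adjusted p = 9.36e-06) and by 1.06 ± 0.11 against Ctrl-AM (limma adjusted p = 1.57e-05). Its difference between Tumor-AM and Ctrl-AM was 0.10 ± 0.11 (limma adjusted p = 0.641), with a 95% interval from -0.15 to 0.35, and its sign turned to -0.04 with TPM.

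Mertk, the receptor tied most closely to corpse engulfment by macrophages, followed the order of Axl. Levels were 92.5, 102 and 91.5 FPKM for Ctrl-AM, 117, 101 and 101 FPKM for Tumor-AM and 45.0, 31.4 and 45.4 FPKM for Tumor-macrophage. The Tumor-macrophage samples were again all below the others. Mertk fell by 1.38 ± 0.13 (SE) in Tumor-macrophage against Tumor-AM (limma adjusted p = 8.67e-06) and by 1.23 ± 0.13 against Ctrl-AM (limma adjusted p = 1.81e-05). Tumor-AM and Ctrl-AM differed by 0.15 ± 0.13 (limma adjusted p = 0.529), with a 95% interval from -0.14 to 0.45. The mean in Tumor-macrophage was 38.2% of that in Tumor-AM for Mertk and 45.0% for Axl. For comparison, 7 of the 9 alveolar macrophage markers were at 0.085% (Ear1) to 8.43% (Pparg) of their Tumor-AM level in the same samples, and Itgax and Fabp4 were at 21.2% and 23.7%.

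Tyro3, the family member best known from the nervous system, was near the floor. It was listed at 0 in 6 of 9 samples, at 0.0192 FPKM in Ctrl-AM 1, 0.116 FPKM in Tumor-AM 3 and 0.185 FPKM in Tumor-macrophage 2, or about 1, 6 and 8 reads. A count of 3 reads would correspond to 0.058 to 0.073 FPKM. No comparison of Tyro3 was detectable at this depth.

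Axl made up most of the summed TAM receptor FPKM in every sample. The share of Mertk was 25.2% ± 0.7 for Ctrl-AM, 25.9% ± 0.17 for Tumor-AM and 22.9% ± 2.0 for Tumor-macrophage (SD, n = 3). Because a ratio within a sample does not depend on scaling, the log2 ratio of Mertk to Axl was compared directly. It differed by 0.05 between Tumor-AM and Ctrl-AM (two-sided exact permutation p = 0.3), by -0.24 between Tumor-macrophage and Tumor-AM (exact permutation p = 0.1) and by -0.19 between Tumor-macrophage and Ctrl-AM (exact permutation p = 0.3). With 3 samples against 3, the smallest p this test can give is 0.1. In Tumor-macrophage, samples 1 and 2 had the low shares (22.0% and 21.5%), whereas sample 3, at 25.1%, lay within the range of Ctrl-AM.

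Pros1 (protein S, also an anticoagulant in plasma) was the ligand of alveolar macrophages. The 3 samples read 139, 149 and 154 FPKM for Ctrl-AM, 157, 152 and 154 FPKM for Tumor-AM and 35.0, 27.4 and 30.1 FPKM for Tumor-macrophage. The 6 alveolar macrophage samples lay close together, far above the Tumor-macrophage samples. Pros1 fell by 2.30 ± 0.09 (SE) in Tumor-macrophage against Tumor-AM (limma adjusted p = 9.47e-09) and by 2.23 ± 0.09 against Ctrl-AM (limma adjusted p = 8.32e-09), and its mean was 19.9% of that in Tumor-AM. Tumor-AM differed from Ctrl-AM by 0.07 ± 0.09 (limma adjusted p = 0.68), with a 95% interval from -0.12 to 0.27, and the sign turned to -0.07 with TPM.

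Gas6 (growth arrest-specific 6, which binds all TAM receptors) had the opposite pattern. The Ctrl-AM samples had 0.921, 0.987 and 0.389 FPKM and the Tumor-AM samples 0.109, 0.368 and 1.44 FPKM, about 3 to 46 reads each. The Tumor-macrophage samples stood at 43.8, 47.1 and 46.7 FPKM, or about 1153 to 1380 reads, with no overlap. Gas6 was higher in Tumor-macrophage by 4.92 ± 0.26 (SE) against Tumor-AM (limma adjusted p = 8.57e-08) and by 4.75 ± 0.26 against Ctrl-AM (limma adjusted p = 7.66e-08), or 71.8 and 59.9 times the mean FPKM. The first ratio turned on Tumor-AM 3 and was 192 without it, a value added after the data were seen. Gas6 passed the filter only through Tumor-macrophage, and both p-values come under this limit. The alveolar macrophage groups differed by -0.17 ± 0.26 (limma adjusted p = 0.735). Its Tumor-AM mean was 1.39% of that in Tumor-macrophage, or 0.52% without Tumor-AM 3. Of 8 other genes high in Tumor-macrophage, C1qa, C1qb, C1qc and Cx3cr1 stood at 0.451% to 0.844% in Tumor-AM and Apoe, Tgfb3, Ccr2 and Ly6c2 at 1.62% to 14.0%, so that Gas6 lay within their range. The part of Tumor-macrophage RNA in the alveolar macrophage values of Gas6 was not tested.

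Taken within each sample, Gas6 was 0.661%, 0.656% and 0.252% of the summed ligand FPKM of Ctrl-AM samples, 0.0691%, 0.241% and 0.924% for Tumor-AM, and 55.6%, 63.2% and 60.8% for Tumor-macrophage. The groups of alveolar macrophages overlapped and both lay far below Tumor-macrophage. The summed ligand level was nevertheless lower in the latter, at 76.7 ± 2.1 FPKM against 148 ± 7.6 FPKM for Ctrl-AM and 155 ± 2.3 FPKM for Tumor-AM (SD, n = 3). The summed receptor level was 177 ± 29 FPKM against 377 ± 12 and 409 ± 36 FPKM. The ratio of summed ligand to summed receptor FPKM was 0.44 ± 0.064 for Tumor-macrophage, 0.393 ± 0.02 for Ctrl-AM and 0.381 ± 0.028 for Tumor-AM. These sums were chosen after the values were seen and carry no test.

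**Figure D2:**
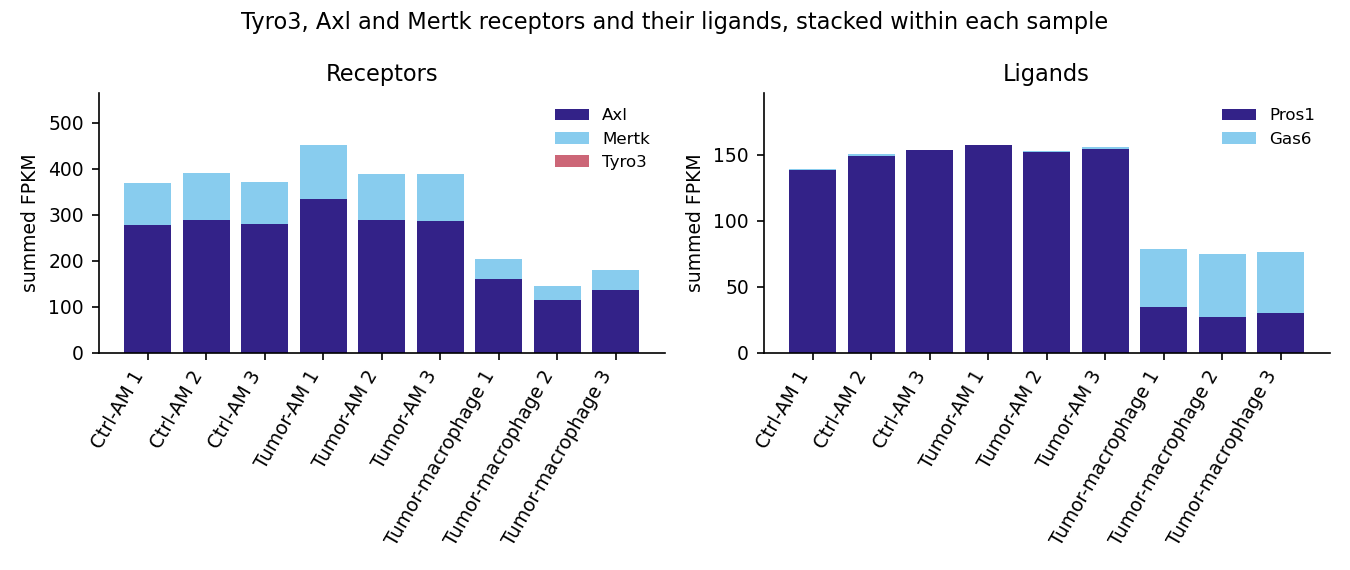
Stacked FPKM of the TAM receptors (left) and of their ligands (right) in each of the 9 samples. Axl is the larger part in every sample and the receptor sum is lowest in Tumor-macrophage, Tyro3 is too low to be visible, and Gas6 makes up 55.6% to 63.2% of the ligand sum in the 3 Tumor-macrophage samples and at most 0.924% in the other 6.

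Mfge8 (milk fat globule-EGF factor 8, the bridge to alpha-v integrins) had the largest change of the 8 tested genes between the alveolar macrophage groups. Ctrl-AM samples had 11.9, 17.6 and 11.8 FPKM, Tumor-AM samples 45.3, 38.7 and 73.8 FPKM and Tumor-macrophage samples 31.2, 17.9 and 45.7 FPKM. Every Tumor-AM sample was above every Ctrl-AM sample, and Tumor-macrophage overlapped Tumor-AM and came close to the highest Ctrl-AM sample. Mfge8 rose by 1.83 ± 0.32 (SE) in Tumor-AM against Ctrl-AM (limma adjusted p = 0.00595), a ratio of mean FPKM of 3.82. Tumor-macrophage also exceeded Ctrl-AM, by 1.07 ± 0.32 (limma adjusted p = 0.0161), but this call was lost without Ctrl-AM 1, Ctrl-AM 3 or Tumor-macrophage 3 (limma adjusted p = 0.0541, 0.0536 and 0.0631). Tumor-macrophage against Tumor-AM gave -0.76 ± 0.32 (limma adjusted p = 0.0741), which passed the threshold with TPM (-0.86, limma adjusted p = 0.0403) and without Tumor-macrophage 3 (-1.07, limma adjusted p = 0.0181).

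Fibroblasts are another known source of Mfge8, and the sum of 5 of their markers was higher in every Tumor-AM sample than in Ctrl-AM. The summed FPKM of Col1a1, Col1a2, Col3a1, Dcn and Pdgfra was 3.24, 5.32 and 6.36 for Ctrl-AM samples, 12.6, 7.84 and 50.1 for Tumor-AM, and 7.49, 6.11 and 9.55 for Tumor-macrophage. Tumor-AM 3 was highest for both. Of the 5 markers, 2 passed the filter and Col3a1 was called higher in Tumor-AM against Ctrl-AM (1.99, limma adjusted p = 0.0272), while the defining collagen gene Col1a1 was at 0 to 1.37 FPKM in all 9 samples. Without Tumor-AM 3, Mfge8 was still higher in Tumor-AM, by 1.56 (limma adjusted p = 0.0234). The marker sums of the other 2 Tumor-AM samples, 12.6 and 7.84 FPKM, were also above every Ctrl-AM sample, as were Col3a1 (4.84 and 3.47 against at most 1.51 FPKM) and Dcn (6.87 and 4.28 against at most 3.49 FPKM). The part of fibroblast RNA in the Mfge8 difference was not tested.

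**Figure D3:**
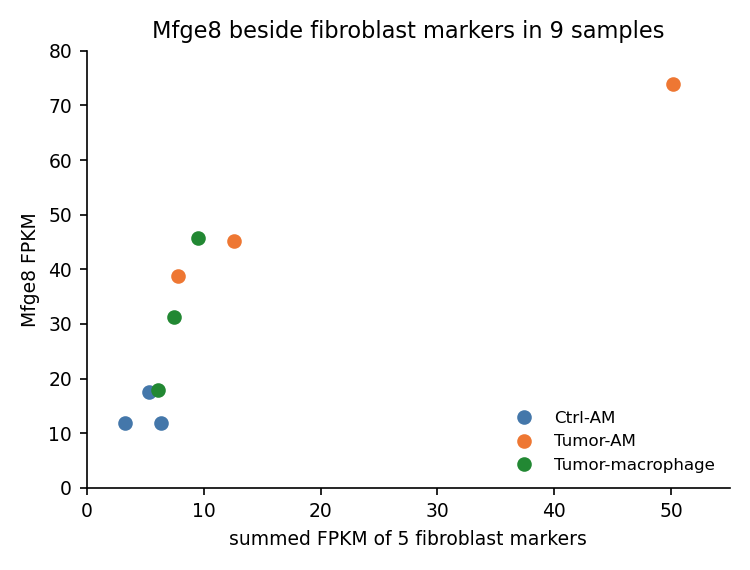
Mfge8 FPKM (vertical) against the summed FPKM of 5 fibroblast markers (horizontal) in the 9 samples, coloured by group. Tumor-AM 3 is highest on both axes, at 73.8 and 50.1 FPKM, and the 3 Ctrl-AM samples are in the lower left corner with Tumor-macrophage 2.

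Tgm2 (tissue transglutaminase, a cross-linking enzyme that also assists corpse uptake) was abundant in every population and highest in Tumor-AM. Levels were 258, 302 and 302 FPKM for Ctrl-AM, 390, 386 and 394 FPKM for Tumor-AM and 302, 258 and 255 FPKM for Tumor-macrophage. The Tumor-AM samples stood above all 6 others, which overlapped. Tgm2 rose by 0.44 ± 0.09 (SE) in Tumor-AM against Ctrl-AM (limma adjusted p = 0.0107), a call that TPM removed (0.30, limma adjusted p = 0.0592), and fell by 0.52 ± 0.09 in Tumor-macrophage against Tumor-AM (limma adjusted p = 0.000511). Tumor-macrophage and Ctrl-AM differed by -0.08 ± 0.09 (limma adjusted p = 0.446), although with TPM the value was -0.32 (limma adjusted p = 0.0121).

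Timd4, the receptor that binds phosphatidylserine without a bridge and marks long-lived resident macrophages in several tissues, was low throughout. The 3 samples read 0.207, 0.435 and 0.798 FPKM for Ctrl-AM, 0.0879, 0.284 and 0.148 FPKM for Tumor-AM and 3.29, 2.53 and 3.05 FPKM for Tumor-macrophage. This amounted to about 59 to 77 reads per Tumor-macrophage sample and 2 to 22 in the others, and the Tumor-macrophage samples stood above the rest. The change was 1.75 ± 0.17 (SE) against Tumor-AM (limma adjusted p = 7.93e-06) and 1.43 ± 0.17 against Ctrl-AM (limma adjusted p = 3.15e-05). Timd4, too, passed the filter only through Tumor-macrophage, so these p-values come under the same limit as those of Gas6. The Tumor-macrophage level exceeded that of only 22.4% of the genes tested. Timd4 in Tumor-AM against Ctrl-AM was -0.32 ± 0.17 (limma adjusted p = 0.272), at a few reads per sample.

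Elmo1, the adaptor downstream of uptake receptors, was highest in Tumor-macrophage. Ctrl-AM samples had 15.3, 16.6 and 16.2 FPKM, Tumor-AM samples 19.3, 17.9 and 18.2 FPKM and Tumor-macrophage samples 28.3, 24.8 and 30.0 FPKM. The 3 groups did not overlap. Elmo1 was higher in Tumor-macrophage by 0.56 ± 0.09 (SE) against Tumor-AM (limma adjusted p = 0.000371) and by 0.75 ± 0.09 against Ctrl-AM (limma adjusted p = 3.74e-05). The step from Ctrl-AM to Tumor-AM, 0.19 ± 0.09, did not pass the test (limma adjusted p = 0.22). Its paralog Elmo2, in contrast, fell by 0.75 in Tumor-macrophage against Tumor-AM (limma adjusted p = 3.74e-05), from 41.8 ± 2.9 to 24.5 ± 2.3 FPKM (SD, n = 3).

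**Figure D4:**
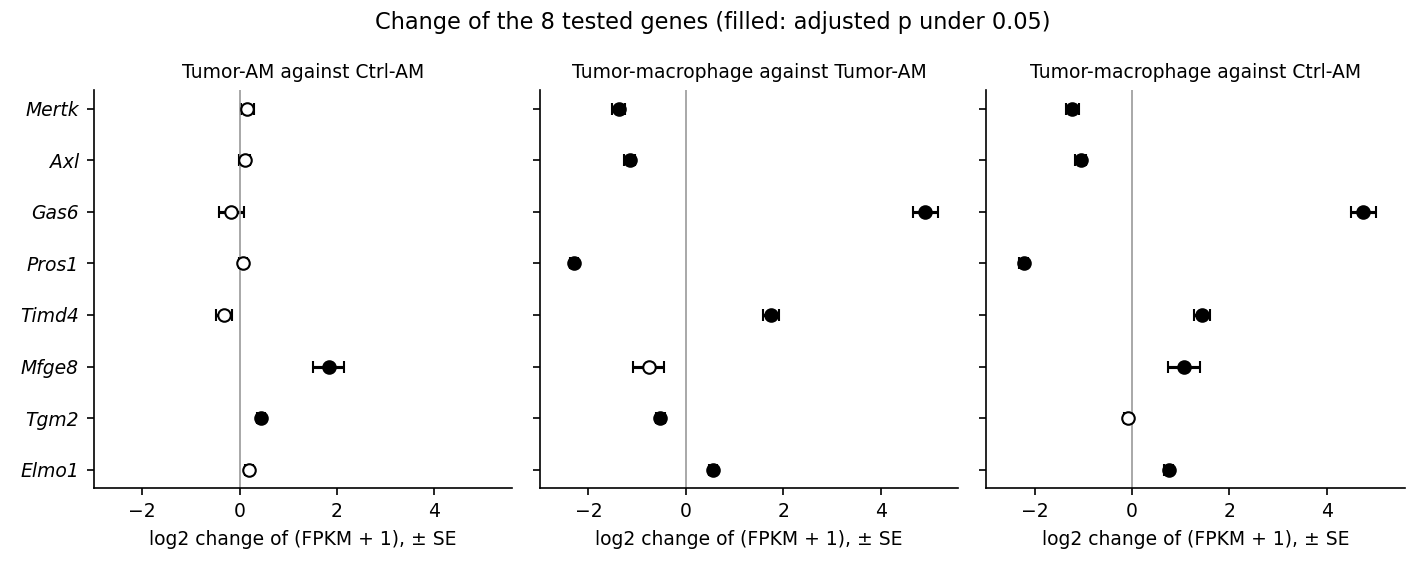
Difference of mean log2(FPKM + 1) with its SE for the 8 tested genes in the 3 comparisons, filled where the limma adjusted p was under 0.05. In Tumor-AM against Ctrl-AM Mfge8 (1.83) and Tgm2 (0.44) are filled, and in the comparisons with Tumor-macrophage Gas6 lies far to the right and Pros1 to the left.

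In Ctrl-AM the order of mean levels was Tgm2 (288 ± 26 FPKM), Axl (282 ± 6.3), Pros1 (147 ± 7.8), Mertk (95.2 ± 5.6), Elmo1 (16.0 ± 0.65), Mfge8 (13.8 ± 3.3), Gas6 (0.766 ± 0.33), Timd4 (0.48 ± 0.3) and then Tyro3 (SD, n = 3). Neighbours whose samples overlapped were Tgm2 and Axl, Elmo1 and Mfge8, and Gas6 and Timd4. In Tumor-AM the order was Tgm2 (390 ± 4.0), Axl (303 ± 27), Pros1 (155 ± 2.4), Mertk (106 ± 9.1), Mfge8 (52.6 ± 19), Elmo1 (18.4 ± 0.73), Gas6 (0.638 ± 0.70), Timd4 (0.173 ± 0.10) and Tyro3, with overlap between Gas6 and Timd4 and between Timd4 and Tyro3. In Tumor-macrophage the order was Tgm2 (272 ± 26), Axl (136 ± 23), Gas6 (45.8 ± 1.8), Mertk (40.6 ± 8.0), Mfge8 (31.6 ± 14), Pros1 (30.8 ± 3.8), Elmo1 (27.7 ± 2.6), Timd4 (2.96 ± 0.39) and Tyro3. From Gas6 to Elmo1, each neighbouring pair overlapped.

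The genes whose log2(FPKM + 1) followed each of these genes most closely over the 9 samples were taken by Pearson correlation among 5975 genes (5976 for Timd4) with a mean of at least 10 FPKM in a group. The 9 points form 3 groups, so the coefficients mainly describe the group pattern. Pros1 was followed by Cyb561 (0.999), the alveolar macrophage marker Plet1 (0.998) and Plk3 (0.998). Mertk was followed by Aplp2 (0.994) and Ikbkb (0.994), and Axl by the kynureninase gene Kynu (0.996), Svil (0.995) and Prr5l (0.994). All of these had a lower mean in Tumor-macrophage than in Tumor-AM, Plet1 at 7.29 against 1521 FPKM and Ikbkb at 26.9 against 42.2 FPKM.

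Gas6 was followed by Gng11 (0.994), Rgs10 (0.994) and Tnfsf9 (0.994), all higher in Tumor-macrophage than in either alveolar macrophage group by group mean. Timd4 was followed by Adgre1, which encodes the sorting antigen F4/80 (0.986), Fgd2 (0.98) and Mdfic (0.977). Elmo1 was followed by Galc (0.992), the chemokine gene Ccl4 (0.991) and Nfe2l2 (0.989). Mfge8 was followed by the lysosomal protease gene Ctsd (0.966), Cd84 (0.951) and Fosb (0.946), and Tgm2 by Gak (0.963) and Fkbp1b (0.963).

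Other genes of apoptotic cell uptake were taken from 6 lists, chosen with earlier results of these data known. Beside each count below stand the shares over all genes: 7.11% higher and 3.18% lower in Tumor-AM against Ctrl-AM, 24.2% and 24.4% in Tumor-macrophage against Tumor-AM. Without Tumor-macrophage, 7 of the 68 list genes tested would have failed the filter on low values. They were Stab1, Scarf1, Cx3cr1, Socs1, Src, Ptk2 and Siglecg, named for that reason. Ptk2 (1.58 to 1.96 FPKM) and Siglecg (0.730 to 2.45 FPKM) were low there too, and Siglecg overlapped Tumor-AM. Ptk2 was above every alveolar macrophage sample (0.211 to 1.38 FPKM). All of the 7 but Siglecg were higher in each Tumor-macrophage sample than in any alveolar macrophage sample, so the filter favoured a difference for them. Of 19 other uptake receptors, 14 were tested. In Tumor-AM against Ctrl-AM, 5 rose and none fell, with a median change of 0.28 beside 0.01 over all genes, and in Tumor-macrophage against Tumor-AM 9 rose and 5 fell, with a median of 0.96 beside 0.00. Cd93 (1.31 ± 0.19), the endotoxin co-receptor Cd14 (1.17 ± 0.14) and Cd300lb (0.59 ± 0.10) were among those that rose in Tumor-AM (SE; limma adjusted p = 0.00234, 0.00101 and 0.00541). The scavenger receptor Stab1, which binds phosphatidylserine, was at 0.0183 to 0.375 FPKM in alveolar macrophages and 51.4 to 55.2 FPKM in Tumor-macrophage. Its fitted change of 5.39 ± 0.11 (limma adjusted p = 1.74e-10) and that of Scarf1 (2.87) come under this limit of the filter. Cd300ld (1.66) also rose there, whereas the lipid scavenger receptors Scarb1 (-1.38) and Cd36 (-0.91) and the inhibitory receptor Cd300lf (-0.78) fell. With TPM, 4 receptors rose and Cd36 fell in Tumor-AM. Without Tumor-AM 3, 4 rose and none fell, beside 479 and 195 of all 10686 genes.

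Of 15 other bridges and opsonins, 11 were tested. In Tumor-AM against Ctrl-AM, 7 rose and none fell (median 0.39), and 5 of these rose with TPM. C1qb rose from 11.1 ± 2.2 to 47.6 ± 19 FPKM, C1qc from 5.52 ± 0.66 to 20.7 ± 8.5 FPKM and Apoe from 126 ± 51 to 452 ± 140 FPKM (SD, n = 3; limma adjusted p = 0.000649, 0.00134 and 0.00363). These genes are far higher in Tumor-macrophage (6882, 4532 and, for Apoe, 20709 to 33190 FPKM), and the Tumor-AM levels are 0.692%, 0.457% and 1.62% of those. The part of Tumor-macrophage RNA in these increases was not tested. In Tumor-macrophage against Tumor-AM, 6 rose and 2 fell (median 1.86), with annexin A1 (Anxa1) at -1.35 ± 0.07 (SE; limma adjusted p = 6.76e-08).

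The intracellular engulfment machinery had smaller median changes than the receptors and bridges. Of 21 genes, 18 were tested, and 2 rose and none fell in Tumor-AM against Ctrl-AM (median 0.07), near the 7.11% and 3.18% of all genes. Rac2, the haematopoietic Rac, rose by 0.36 ± 0.07 (limma adjusted p = 0.0121), a call absent with TPM, and the Rac activator Vav3, named after its values were seen, by 0.58 ± 0.14 (limma adjusted p = 0.0262), a call absent without Tumor-AM 3. In Tumor-macrophage against Tumor-AM 6 rose and 5 fell (median 0.12), beside 24.2% and 24.4% of all genes. Without Tumor-AM 3, 5 rose and 3 fell, beside 2381 and 2412 of all 10686 genes, and Abca7 was no longer called. The cholesterol exporter Abca1 rose by 1.66, Vav3 and its relative Vav1 by 0.90 and 0.64, and Elmo2, Abca7 and Rac1 fell by 0.75, 0.46 and 0.27.

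Find-me receptors and do-not-eat-me signals moved in both directions. Of 9 genes, all were tested, and Gpr132, a receptor for lysophospholipids, was the sole gene called in Tumor-AM against Ctrl-AM, named after its values were seen (0.73, limma adjusted p = 0.0281). In Tumor-macrophage against Tumor-AM 4 rose and 4 fell (median 0.30), beside 24.2% and 24.4% of all genes. The fractalkine receptor Cx3cr1 (5.44, under the limit of the filter), the sphingosine-1-phosphate receptor S1pr1 (3.05) and Gpr132 (2.74) rose. Cd24a (-2.87), Cd47 (-1.34) and the nucleotide receptor P2ry2 (-1.31) fell, Cd47 from 511 ± 7.2 to 201 ± 8.2 FPKM (SD, n = 3).

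Adam17 sheds Mertk and Adam10 sheds Axl from the cell surface, Socs1 and Socs3 are known targets of TAM signalling, and Ggcx, Vkorc1 and Vkorc1l1 belong to the vitamin K cycle that the ligands need. Of these 7, Socs3 (1.12 ± 0.12) and Adam10 (0.47 ± 0.08) rose in Tumor-AM (SE; limma adjusted p = 0.000599 and 0.00376), and none fell (median 0.13), although with TPM Vkorc1 was called lower. In Tumor-macrophage against Tumor-AM 4 rose and 1 fell (median 0.34). Socs3 reached 87.6 ± 7.9 FPKM from 11.6 ± 1.9, Socs1 rose by 2.52 (under the limit of the filter), Adam17 by 0.86, and Vkorc1l1 fell from 14.0 ± 1.8 to 2.95 ± 0.51 FPKM (SD, n = 3).

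Of 10 nuclear receptors and factors tied to uptake programs, 9 were tested. In Tumor-AM against Ctrl-AM 4 rose and 1 fell (median 0.25). The orphan receptor Nr4a1 rose by 0.92 ± 0.18, Klf2 by 0.60 ± 0.15 and Klf4 by 0.35 ± 0.08, and Pparg, the alveolar macrophage regulator, fell by 0.53 ± 0.09 (SE; limma adjusted p = 0.0107, 0.0328, 0.0209 and 0.00455). Klf2 and Klf4 were not called with TPM or without Tumor-AM 3. In Tumor-macrophage against Tumor-AM 3 rose and 4 fell (median -0.07). Klf2 rose by 1.20, and Pparg was at 11.8 ± 1.2 against 140 ± 4.2 FPKM (SD, n = 3).

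**Figure D5:**
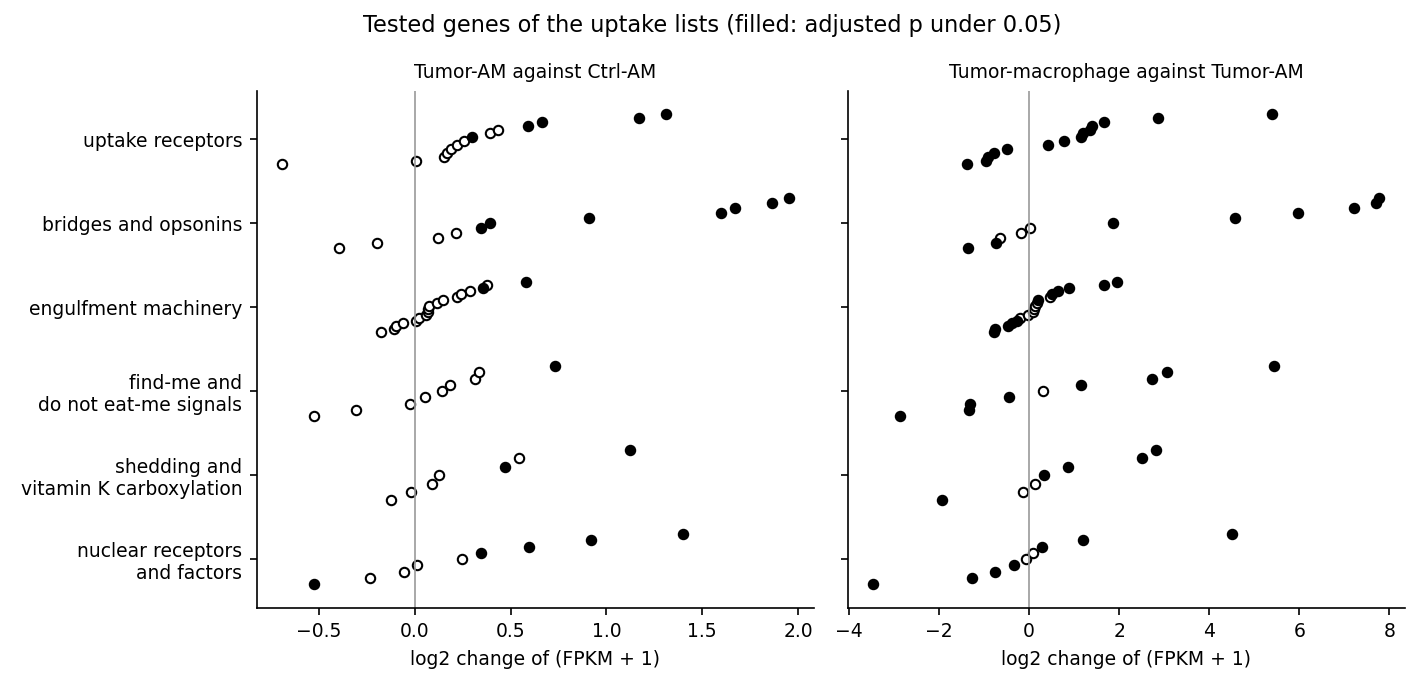
Difference of mean log2(FPKM + 1) of each tested gene of the 6 lists in Tumor-AM against Ctrl-AM (left) and Tumor-macrophage against Tumor-AM (right), on axes of different range, filled where the limma adjusted p was under 0.05. In the left panel filled points lie to the right of 0 except Pparg, whereas in the right panel they lie on both sides.

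Against Ctrl-AM, which both tumor-lung populations share as control, Tumor-macrophage had 9 higher and 4 lower among the uptake receptors, 7 and 2 among the bridges, 8 and 4 among the engulfment genes, 4 and 4 among the find-me and do-not-eat-me signals, 4 and 2 in the shedding and vitamin K list, and 4 and 3 among the factors, beside 27.7% and 27.1% of all genes. The higher counts include Stab1, Scarf1, Src, Ptk2, Cx3cr1 and Socs1. These passed the filter only through Tumor-macrophage, so it favoured their calls in advance. The engulfment split was 7 and 7 with TPM and 8 and 6 with quantile normalization, and that of the factors was 3 and 4 and 3 and 3. C1qc had the largest named change (9.45 ± 0.21 SE, limma adjusted p = 1.83e-10) and Pparg the largest named decrease (-3.99 ± 0.09, limma adjusted p = 1.39e-10).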

How the data were processed

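Full-length cDNA (SMART-Seq HT, not strand-marking) of sorted cells was sequenced in 75-base single-end mode. The authors aligned reads to mm10 with TopHat2 (2.1.1, per the labels, with Bowtie2) and deposited FPKM per gene from Cufflinks tools (the labels name Cuffdiff 2.2.1), 1 file per sample. The annotation, the treatment of multi-mapped reads and library batches were not given in the sources used here. From these FPKM, log2(FPKM + 1) of genes with at least 1 FPKM in at least 3 of 9 samples was fitted with limma 3.58.1 in R 4.3.3 (trend, all groups sharing 1 spread, two-sided, Benjamini-Hochberg, 0.05). The script was tested on simulated data. FPKM are not counts, so no count test was run. Reads were estimated from the FPKM × length of genes with a single transcript longer than 2000 bases, whose low values cluster at whole reads: 79.1% to 84.1% of values below 3.5 reads lay within 0.15 of a whole number. These estimates are approximate, so no count interval is given. Samples were grouped by the labels. p-values measure the spread between 3 samples per group, described in the study as separate mice.

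The genes and lists were chosen with earlier results of these data known. Named from each list were up to 3 genes with the largest called increase and 3 with the largest decrease per comparison, without overlap between groups and with a mean of at least 5 FPKM in the higher group. The 9 genes are always named, as are the 3 genes most correlated with each tested one. Gpr132 and Vav3 in Tumor-AM against Ctrl-AM lie outside this rule, and some genes that it names are not reported here. Promoters come from RefSeq (GRCm38.p6), gene positions from GENCODE. Alternatives were other pseudocounts, filters, scalings, variance priors, samples and a replicate block.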

Additional observations from a re-analysis of the deposited data

How the results depend on the processing

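Under 19 alternatives in each comparison, 442 of 453 values for single genes kept their direction, where called, and their side of the threshold, 8 lost and 3 gained a call, and no called change turned direction. The number of genes called in Tumor-AM against Ctrl-AM dropped from 2 to 1 (Mfge8) with TPM and when a 2-fold change was required. In the comparisons with Tumor-macrophage, 5 to 8 genes were called against Tumor-AM and 6 to 8 against Ctrl-AM. Requiring 2-fold also removed Tgm2 (0.44 and -0.52) and Elmo1 (0.56 and 0.75). The Mertk to Axl ratio kept its direction with a pseudocount of 1 (0.05, -0.22 and -0.17) and without each sample (0.03 to 0.08, -0.33 to -0.19 and -0.28 to -0.13).

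With the replicate number as a block (replicate block), the counts of called genes were 2, 7 and 7, as without it. The 9 pairs of same-numbered samples had correlations of their deviations from -0.0615 to 0.159 (mean 0.0547), and the numbers were not treated as pairs. Only Tumor-AM and Tumor-macrophage samples could share an animal. Between these groups, same-numbered samples had 0.026, 0.0964 and 0.109, above the -0.101 to 0.00617 of differently numbered ones. Of 9 samples, 7 were closest to a sample of their own number. A close pair counts for both of its samples, and no number expected by chance was worked out. A factor shared by same-numbered samples was not tested.

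The scalings of the lists and their counts without Tumor-AM 3 were added after seeing the data. Without Tumor-AM 3 the lists had 4, 6, 1, 1, 2 and 2 genes called higher in Tumor-AM against Ctrl-AM, against 5, 7, 2, 1, 2 and 4 with it, in the order of the text. Over all 10686 genes, 479 were called higher without it and 760 with it. Leaving out any other single alveolar macrophage sample gave 406 to 603. Leaving Tumor-AM 3 out of Tumor-macrophage against Tumor-AM took the bridges called lower from 2 to 1 (Anxa1) and the engulfment genes called lower from 5 to 3. Over all genes, those called lower went from 2603 to 2412. Depth limits Tyro3, Timd4 and the alveolar macrophage values of Gas6.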
